A study of Mus musculus with 72 samples.

Results

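The genes described are 42 components of the machinery that copies DNA, a list of gene symbols with no threshold on a measured value, drawn up when earlier results of these data were known. They were 10 licensing genes (Mcm2, Mcm3, Mcm4, Mcm5, Mcm6, Mcm7, Cdc6, Cdt1, Orc1 and Orc6), 6 genes of helicase activation (Cdc45, Gins1, Gins2, Gins3, Gins4 and Mcm10), and 8 polymerase and primase subunits (Pola1, Pola2, Pold1, Pold2, Pole, Pole2, Prim1 and Prim2). The sliding clamp and its loader gave 6 more (Pcna, Rfc1, Rfc2, Rfc3, Rfc4 and Rfc5). The others were 3 subunits of the single-strand binding protein (Rpa1, Rpa2 and Rpa3), 2 genes of Okazaki fragment maturation (Fen1 and Lig1), 5 of nucleotide supply (Rrm1, Rrm2, Tk1, Tyms and Dut) and 2 of chromatin assembly (Chaf1a and Chaf1b). All 42 were listed in the tables of the RAW264.7 cells and 37 of 42 in that of the marrow-derived cells, out of 18472 genes listed in any table. Cdc6, Gins1, Gins3, Orc1 and Rpa3 have no row in the marrow-derived table and were not analysed there. Every listed member passed the filter on low values, which asked for 1 TPM or more in any 3 libraries of an experiment.

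Before a cell copies its genome, the origin recognition complex, Cdc6 and Cdt1 load the ring of MCM proteins onto DNA, a step called licensing. Cdc45 and the GINS complex then turn the ring into an active helicase, primase starts each strand, and polymerases held by the PCNA clamp extend it, while ribonucleotide reductase and thymidine kinase feed the supply of nucleotides. Many of these genes are transcribed under the control of E2F factors as cells enter S phase, and in macrophages, which can leave the cycle when they are activated by bacterial products, their messenger RNA is a common readout of how much a culture proliferates.

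The study asked what the histone methyltransferases Setd1a and Setd1b contribute to gene expression in mouse macrophages exposed to lipopolysaccharide (LPS, a bacterial cell wall component) and to dexamethasone (Dex, a synthetic ligand of the glucocorticoid receptor). Messenger RNA was measured in 72 libraries, in 4 experiments and 24 groups of 3. RAW264.7 is an established macrophage-like tumour line from BALB/c mice, grown in serum and used here as wild type and as Setd1aDel/+, a heterozygous deletion called Setd1aDel below. The second cell type was C57BL/6J bone marrow differentiated for 7 days in supernatant of L929 cells, the source of a macrophage growth factor, and treated in serum-free medium. It came as Setd1bKO and as a control whose titles read wt and whose genotype label reads Setd1bHet. The labels name no promoter, Cre or number of clones for either deletion. In the 16 h RAW264.7 experiment and in the marrow-derived cells, the groups were vehicle (ethanol) for 16 h, LPS at 100 ng/ml for 6 h, and Dex at 1 uM for 16 h with LPS for 6 h. The LPS groups there received ethanol for 16 h as well. In the 6 h RAW264.7 experiment Dex, LPS and vehicle were each given for 6 h, and a group with Dex alone was added. Its LPS groups without Dex also received ethanol for 6 h. In the IFNB1 experiment, wild-type and Setd1aDel RAW264.7 cells received LPS for 6 h, alone or with interferon beta 1 (IFNB1) at 10 ng/ml. The LPS dose is that of the sample labels, whereas the protocol text gives it in ng/ul for all groups but the one with IFNB1.

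Values are the deposited TPM, a transcript abundance relative to the whole library that is corrected for gene length, so that levels of different genes can be set side by side. The number of reads behind them is unknown. Changes are differences of log2(TPM + 1) with the standard error (SE) from limma, and a gene was called where its Benjamini-Hochberg adjusted p, over all tested genes of the comparison, was under 0.05. On this scale the change of a gene at a low level is understated. Replicates are called biological in the labels, with no word on separate animals or cultures, and each p-value therefore rests on how far libraries of a group spread. In bulk RNA, fewer cells that are replicating and less RNA per replicating cell cannot be told apart. Setd1a itself was lower in the Setd1aDel libraries of the 16 h experiment (-0.63 ± 0.15 with vehicle). In the 6 h experiment its difference was -0.50 ± 0.21 with vehicle (adjusted p = 0.0954) and did not pass the test. Setd1b RNA was higher, by 1.003 ± 0.21, in the vehicle libraries labelled Setd1bKO, so the RNA level did not check that label. Macrophage markers were expressed in every library, with a row for 9 of 10 in the RAW264.7 Dex table and for 10 of 10 in the others. Of these Mertk was at 0 TPM in all wild-type LPS libraries and all Setd1aDel libraries of the IFNB1 experiment. Markers of T cells, B cells, fibroblasts, erythroid cells and progenitors have no row in the marrow-derived and RAW264.7 Dex tables. A missing row does not show that a gene was absent. Of 8 neutrophil and 5 dendritic cell markers 1 each had a row in the marrow-derived table. Over its libraries the neutrophil marker ranged from 24.2 to 521 TPM and the dendritic cell marker from 18.5 to 73.1 TPM.

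Replication genes were expressed in all groups, most highly in untreated RAW264.7 cells. Summed over the members, wild-type vehicle cells of the 16 h experiment held 3959.6 ± 65.7 TPM (SD, n = 3), those of the 6 h experiment 3371 ± 4.34 TPM, and control marrow-derived cells 879.5 ± 18.3 TPM over the 37 genes listed there. Pcna, the clamp that holds the polymerase on DNA, was the most abundant member in all 24 groups. In wild-type vehicle cells of the 16 h experiment it stood at 558 ± 23.3 TPM, followed by the salvage kinase gene Tk1 (295 ± 11.1), the dUTPase gene Dut (258 ± 2.73) and the small ribonucleotide reductase subunit Rrm2 (206 ± 7.36). The least abundant was Orc1, a subunit of the origin recognition complex, at 8.63 ± 0.335 TPM. In control marrow-derived cells Pcna reached 414 ± 5.48 TPM, and the next members, Rfc2 (41.6 ± 0.863) and Mcm6 (30.9 ± 1.64), were far lower. Pcna and Tyms have annotated processed pseudogenes (Pcna-ps1, Pcna-ps2 and Tyms-ps), and no source used here says how shared reads were divided, so these values are uncertain.

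**Figure D1:**
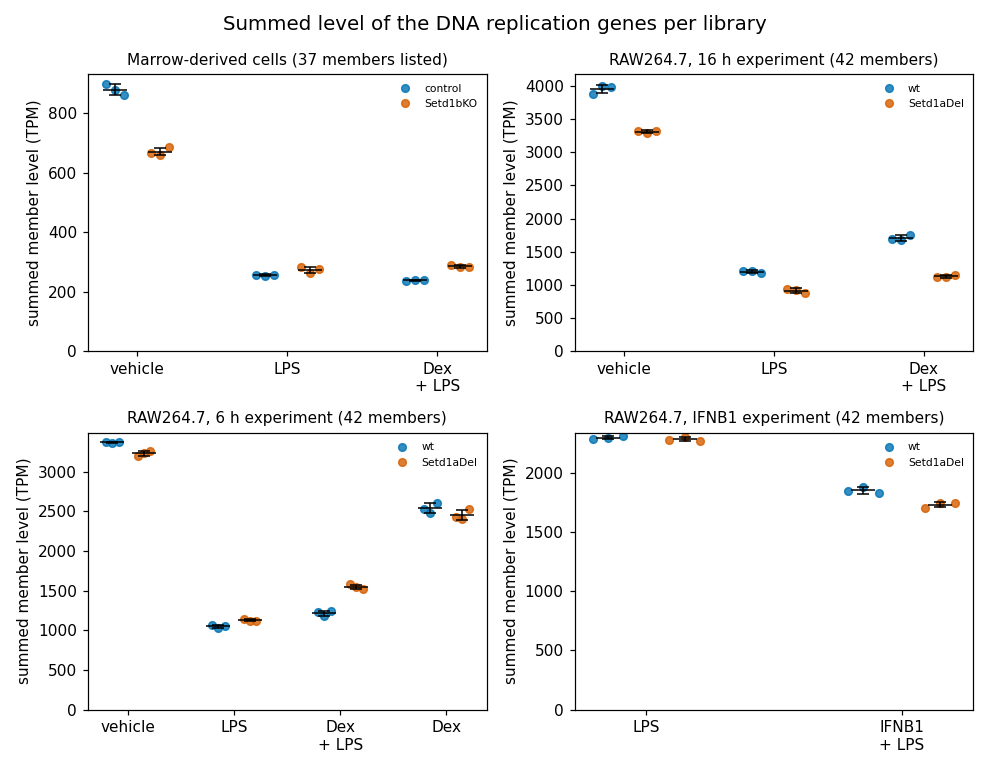
Summed TPM of the DNA replication genes in each library (points) by treatment group, with the mean and SD of 3 libraries, in 1 panel per experiment. LPS groups lie below vehicle groups in each genotype of the 3 experiments that have vehicle groups, and with Dex for 16 h the wild-type RAW264.7 libraries rise to 1707 ± 38.2 TPM against 1126 ± 21.9 in Setd1aDel.

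LPS lowered every replication gene in RAW264.7 cells. In wild-type cells of the 16 h experiment 42 of 42 members were lower and 0 higher, where 17.4% of the 8964 tested genes were higher and 66.1% lower. The median log2 change was -1.60 for the members and -0.38 for all tested genes, and the members' summed level went from 3959.6 ± 65.7 to 1195 ± 21.1 TPM. The 6 h experiment gave 42 of 42 lower and 0 higher against a background of 19.5% higher and 52.3% lower, with medians of -1.66 for the members and -0.24 for all tested genes.

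Tk1, the S phase thymidine kinase (chr11:117815526-117826092, minus strand on GRCm38), fell furthest. Its wild-type vehicle libraries in the 16 h experiment had 282, 299 and 303 TPM and its LPS libraries 21.7, 20.1 and 17.96, groups far apart. The change was -3.82 ± 0.068 (SE, adjusted p = 7.24e-17), and in the 6 h experiment, where LPS libraries held 7.28, 6.28 and 7.50 TPM, it was -4.22 ± 0.075. Chaf1b, a subunit of the factor that places histones on new DNA, changed by -2.76 ± 0.18 at 16 h, and Gins3, a GINS subunit, changed by -2.48 ± 0.075. Rrm2 went from 214, 203 and 200.1 TPM to 44.9, 43.5 and 44.5, with no overlap, a change of -2.19 ± 0.033. The DNA ligase gene Lig1, which seals Okazaki fragments, followed with -2.16 ± 0.039.

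Each functional group took part. All 10 licensing genes fell at 16 h with a median of -1.61, among them Cdc6 (-1.86 ± 0.052), which loads the MCM ring, and the ring subunit Mcm5 (-1.65 ± 0.037). The helicase activator Cdc45 changed by -1.42 ± 0.078, the catalytic subunit of polymerase alpha, Pola1, by -1.47 ± 0.053, and Pcna by -1.63 ± 0.051. Rpa2, which coats single strands, and Fen1, the nuclease that trims Okazaki fragments, changed by -1.81 ± 0.060 and -1.36 ± 0.034. The nucleotide supply genes had a median of -1.95. The smallest changes were those of Rfc3 (-0.98 ± 0.047), a clamp loader subunit, Mcm10 (-0.92 ± 0.048), Orc6 (-0.90 ± 0.065), Rpa3 (-0.78 ± 0.064) and Orc1 (-0.37 ± 0.062). With libraries rescaled by medians of ratios these were -0.58, -0.53, -0.49 and -0.38 for the first 4, and Orc1 lost its call.

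The same treatment of Setd1aDel cells lowered 42 of 42 members and raised 0 in the 16 h experiment (background 18.4% higher and 66.4% lower; medians -1.75 for the members and -0.41 for all tested genes). Tk1 changed there by -4.27 ± 0.068, Lig1 by -2.82 ± 0.039 and Mcm6 by -2.81 ± 0.031. In the 6 h experiment 42 were lower and 0 higher (background 20.4% higher and 49.2% lower; medians -1.51 for the members and -0.21 for all tested genes), with Tk1 at -3.73 ± 0.075 and Orc1 at -0.20 ± 0.066. Rescaling the libraries by medians of ratios moved the median of all genes up by 0.38 (wild type) and 0.42 (Setd1aDel) at 16 h and by 0.24 and 0.21 at 6 h. Relative to that shift the call for Orc1 was lost in all 4 comparisons, and no other member named for them lost its call under an alternative setting. In Setd1aDel cells at 6 h Orc1 also lost it without vehicle replicate 1 (-0.17).

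**Figure D2:**
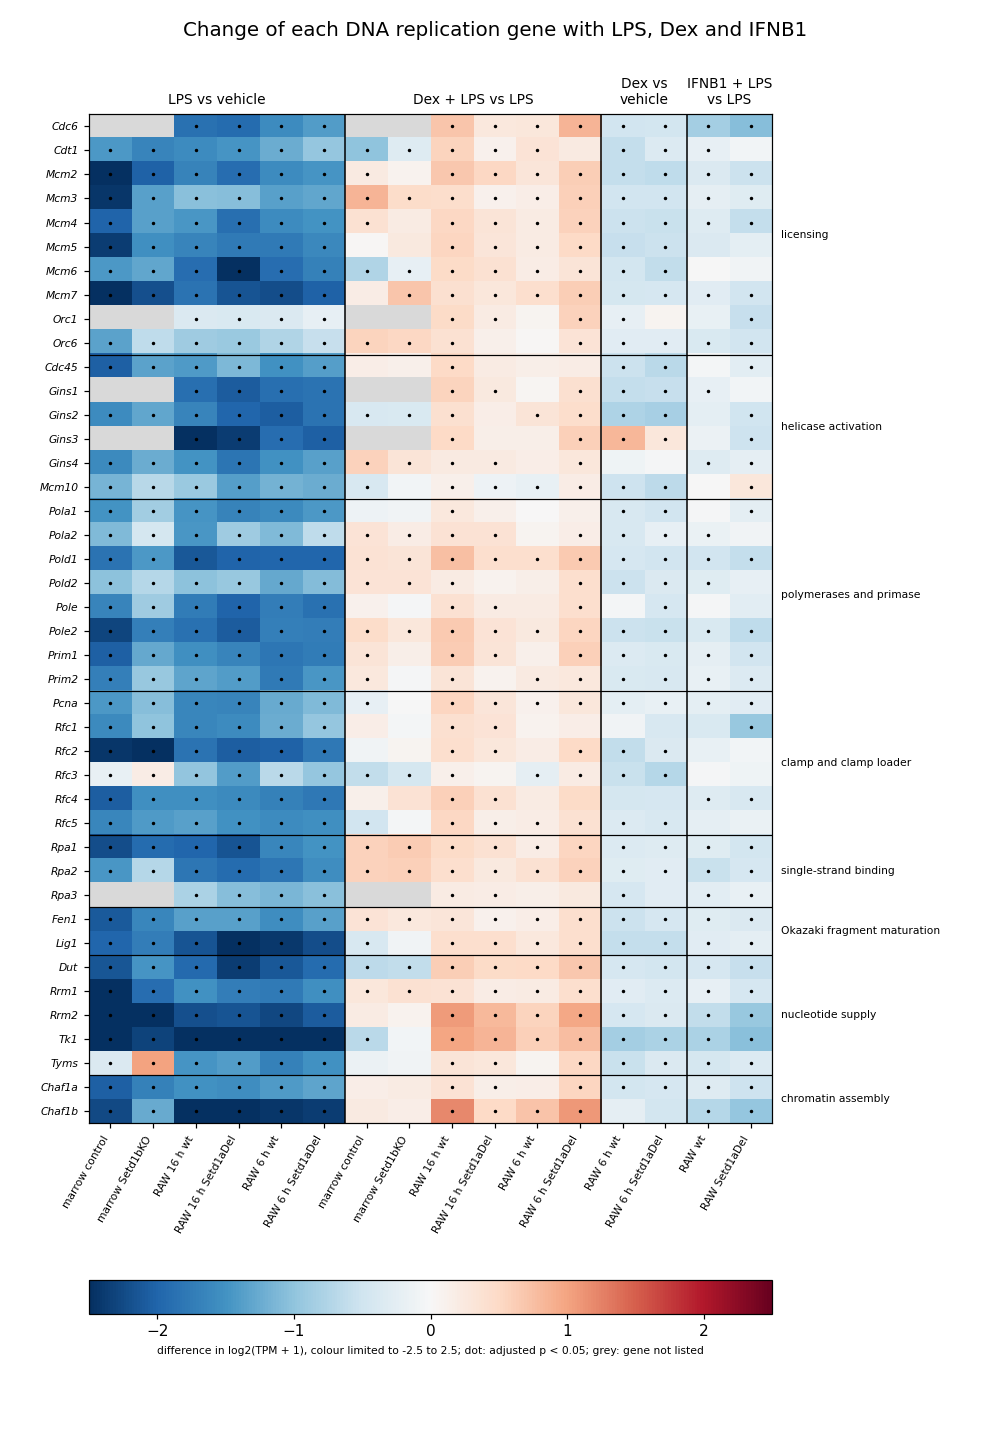
Change in log2(TPM + 1) of each of the 42 DNA replication genes (rows, by role) in 16 comparisons (columns). Dots mark an adjusted p under 0.05 and grey marks a gene with no row in the table. The LPS columns of RAW264.7 cells are negative in all 42 rows, and those for Dex with LPS against LPS in wild-type cells at 16 h are positive in all 42.

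In control marrow-derived cells LPS lowered 37 of 37 listed members and raised 0, where 20.6% of the 9159 tested genes were higher and 64.7% lower. The median log2 change was -1.99 for the members and -0.49 for all tested genes, and the members' sum went from 879.5 ± 18.3 to 255 ± 3.49 TPM. After LPS 11 of 37 members were under 1 TPM in all 3 control libraries, so their changes are bounded by the pseudocount. In fits that each left out 1 library, Rrm2 changed by -3.98 to -3.84 and Tk1 by -3.54 to -3.36. The other subunit of ribonucleotide reductase, Rrm1, changed by -2.74 ± 0.089 with all libraries, and the ring subunits Mcm2 and Mcm7 by -2.72 ± 0.075 and -2.86 ± 0.25. Mcm5 (-2.37 ± 0.11), Fen1 (-2.10 ± 0.080), Cdc45 (-2.04 ± 0.15) and Pcna (-1.44 ± 0.027) also fell. The 2 members that fell least were Tyms, thymidylate synthase, at -0.37 ± 0.089 and Rfc3 at -0.19 ± 0.079. Their direction rests on the scaling: with medians of ratios, which moved all genes by 0.49, Rfc3 was higher and called (0.29), Tyms was at 0.10 without passing the test, and Pcna was at -0.90. Rfc3 also lost its call without control LPS replicate 1 or 3 or control vehicle replicate 2 or 3, and with a pseudocount of 0.1 Cdc45 was at -3.38.

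In the libraries labelled Setd1bKO 35 of 37 members fell with LPS and 2 rose (background 24.9% higher and 58.2% lower; medians -1.36 for the members and -0.37 for all tested genes). Rrm2 (-2.59 ± 0.10), the clamp loader gene Rfc2 (-2.52 ± 0.080) and Tk1 (-2.31 ± 0.094) fell furthest. Tyms rose, from 3.80, 3.81 and 4.49 TPM to 9.90, 9.27 and 8.18, a change of 1.01 ± 0.089 (SE, adjusted p = 2.58e-08) with no overlap. In the control cells the Tyms libraries had 7.57, 7.82 and 7.63 TPM with vehicle and 5.79, 6.29 and 5.14 with LPS. The second member that rose, Rfc3 (0.18 ± 0.079), was at 0.54 with scaling by medians of ratios and lost its call with the replicate number as a block, when only these 2 groups were fitted, and without Setd1bKO LPS replicate 1 or 2 or vehicle replicate 2 or 3 (0.13 to 0.18). With a pseudocount of 0.1 Rrm2 was at -4.40 and Tk1 at -4.02.

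The difference between the genotypes in the marrow-derived LPS response was tested directly. It was called for 23 of 37 members, in each as a smaller fall or a rise in the Setd1bKO cells, and for 0 in the other direction (background 16.4% higher and 5.43% lower; medians 0.62 for the members and 0.11 for all tested genes). The largest were Tyms (1.37 ± 0.13), Rrm2 (1.31 ± 0.15), Tk1 (1.16 ± 0.13) and Mcm3 (1.06 ± 0.094). Some of these genes were near 0 after LPS in both genotypes, with Rrm2 at 0.560, 0.288 and 0.364 TPM in control and 0.224, 0.129 and 0.271 in Setd1bKO libraries, so the fall of such a gene is bounded by its vehicle level. With a pseudocount of 0.1 the count was 18, and Rrm2 (0.94), Tk1 (0.41), Chaf1b, Cdc45 and Mcm10 no longer passed the test, whereas Tyms, Mcm3 and Mcm5 did. Macrophage markers differed between the genotypes as well, with a summed level of 38252 to 39199 TPM in control and 25163 to 25913 in Setd1bKO vehicle libraries, and their part in the result was not tested.

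Promoter sequence from RefSeq (GRCm38.p6) was matched to 35 of the 42 members by symbol, and Gins1, Gins2, Gins4, Mcm4, Pole, Prim2 and Rfc2 were not matched. The 250 bases before each annotated start were searched on both strands, with overlapping matches counted, for 4 E2F-type words (TTTCCCGC, TTTGGCGC, TTTCGCGC and TTTGCCGC) and for the CCAAT word. The 35 members have 40 promoters in the table. An E2F-type word was found in 8 of the 40, each of another member (Cdc6, Gins3, Mcm5, Mcm6, Mcm7, Orc1, Pola1 and Rfc3), against 1.86% of 32851 promoters of the same length. A CCAAT word was found in 23 of the 40, belonging to 22 members, against 33.8% of all promoters. A match describes the letters only. The windows of 3 members that fell with LPS in every RAW264.7 comparison and have no annotated exon in the window are printed 5′ to 3′ on the gene's strand, with the E2F-type words in capitals. They are those of Mcm5 (chr8:75109259-75109508, plus strand, 2 matches that overlap, 153 and 149 bases before the start), Mcm6 (chr1:128359706-128359955, minus strand, 3 matches, from 110 to 47 bases before the start) and Pola1 (chrX:93632156-93632405, minus strand, 1 match, 138 bases before the start).
Mcm5: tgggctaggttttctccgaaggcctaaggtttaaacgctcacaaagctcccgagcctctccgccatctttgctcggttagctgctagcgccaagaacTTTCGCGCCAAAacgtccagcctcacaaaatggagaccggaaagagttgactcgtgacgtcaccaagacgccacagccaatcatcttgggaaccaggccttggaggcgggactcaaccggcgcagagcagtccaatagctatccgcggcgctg
Mcm6: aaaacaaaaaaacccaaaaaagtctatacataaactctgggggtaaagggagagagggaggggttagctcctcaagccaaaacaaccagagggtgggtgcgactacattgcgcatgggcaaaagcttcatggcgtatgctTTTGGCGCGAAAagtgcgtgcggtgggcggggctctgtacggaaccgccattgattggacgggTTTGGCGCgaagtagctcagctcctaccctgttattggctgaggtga
Pola1: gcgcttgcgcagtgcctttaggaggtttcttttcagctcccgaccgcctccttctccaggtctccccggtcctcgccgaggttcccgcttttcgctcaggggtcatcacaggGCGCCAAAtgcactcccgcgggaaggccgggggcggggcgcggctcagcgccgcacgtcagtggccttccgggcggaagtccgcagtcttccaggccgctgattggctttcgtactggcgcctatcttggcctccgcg

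Among these 3 genes the changes with LPS in wild-type cells of the 16 h experiment were -1.65 ± 0.037 for Mcm5, -1.91 ± 0.031 for Mcm6 and -1.47 ± 0.053 for Pola1. Orc1, whose window also holds an E2F-type word, was the member that fell least. Tk1 and Chaf1b, which fell most, hold no such word in the windows searched. Whether these words relate to the size of the fall was not tested. Other E2F-type letters and bases after the start were not searched.

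Dex given for 16 h with LPS left the replication genes of wild-type RAW264.7 cells higher than LPS alone. All 42 of 42 members were higher and 0 lower, where 35.2% of the 8964 tested genes were higher and 12.3% lower. The median log2 difference was 0.46 for the members and 0.094 for all tested genes. The members' summed level was 1195 ± 21.1 TPM with LPS and 1707 ± 38.2 with Dex and LPS, still below the 3959.6 ± 65.7 of vehicle cells. In the authors' deposited table, which gives a DESeq2 fold change for this contrast, 36 of 42 were higher and 0 lower at an adjusted p under 0.05, with a median log2 fold change of 0.36.

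Chaf1b (chr16:93883901-93906115, plus strand) differed most, with 7.45, 7.85 and 12.1 TPM under LPS and 24.4, 23.3 and 18.1 under Dex with LPS, a difference of 1.197 ± 0.18 (SE, adjusted p = 4.62e-05). Rrm2 (chr12:24708241-24714146, plus strand) went from 44.9, 43.5 and 44.5 TPM to 94.7, 90.98 and 94.6, a difference of 1.06 ± 0.033. Tk1 was at 21.7, 20.1 and 17.96 TPM and at 38.4, 38.95 and 44.2, a difference of 0.99 ± 0.068. In none of these 3 genes did the groups overlap. Pold1, the catalytic subunit of polymerase delta (0.75 ± 0.079), and Cdc6 (0.70 ± 0.052) came next. Mcm5 (0.54 ± 0.037), Pcna (0.53 ± 0.051), Cdc45 (0.51 ± 0.078), Rpa2 (0.41 ± 0.060), Fen1 (0.30 ± 0.034) and Pola1 (0.26 ± 0.053) were higher too. The smallest differences were those of Rfc3 (0.13 ± 0.047), Mcm10 (0.13 ± 0.048), Pold2 (0.20 ± 0.038), Rpa3 (0.21 ± 0.064) and Gins4 (0.22 ± 0.054), which lost their calls with scaling by medians of ratios. With that scaling Fen1 was at 0.19 and Pola1 at 0.16. Mcm10 also lost its call without any 1 of the 6 libraries, Rfc3 without any but wild-type Dex with LPS replicate 2, and Rpa3 without wild-type Dex with LPS replicate 3 (0.14).

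In Setd1aDel cells the same 16 h treatment gave 33 higher and 1 lower (background 29.8% higher and 14.9% lower; medians 0.26 for the members and 0.064 for all tested genes), led by Tk1 (0.85 ± 0.068), Rrm2 (0.80 ± 0.033) and Mcm2 (0.51 ± 0.033). The lower member was Mcm10, an initiation factor, at -0.12 ± 0.048, and it lost its call with the replicate number as a block, when only these 2 groups were fitted, and without any 1 library but Setd1aDel Dex with LPS replicate 3 (-0.18 to -0.083 over all 6 fits without 1 library). The authors' deposited table has 22 higher and 1 lower for this contrast.

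With Dex for 6 h, in the second experiment, the difference in wild-type cells was smaller in size, with 23 of 42 members higher and 2 lower (background 14.7% higher and 10.6% lower; medians 0.18 for the members and 0.035 for all tested genes). Chaf1b (0.71 ± 0.21), Tk1 (0.59 ± 0.075), Rrm2 (0.56 ± 0.040) and Dut (0.49 ± 0.060) were the highest, and Rfc3 (-0.22 ± 0.057) and Mcm10 (-0.18 ± 0.050) were lower. When only these 2 groups were fitted the count fell to 13, and Chaf1b, Rfc3 and Mcm10 were among the calls lost. Chaf1b lost its call, too, without wild-type Dex with LPS replicate 2 (0.52) or 3 (0.67) or LPS replicate 2 (0.64) or 3 (0.55), Mcm10 without Dex with LPS replicate 3 or LPS replicate 1, and Rfc3 without Dex with LPS replicate 2. In Setd1aDel cells 36 were higher and 0 lower (background 22.1% higher and 10.7% lower; medians 0.47 for the members and 0.059 for all tested genes), led by Chaf1b (1.09 ± 0.21), Rrm2 (0.97 ± 0.040), Cdc6 (0.85 ± 0.066) and Tk1 (0.78 ± 0.075). The authors' deposited table has 17 higher and 2 lower in wild-type and 30 higher and 0 lower in Setd1aDel cells at 6 h.

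The genotype difference in the effect of Dex under LPS was tested in each experiment, and its sign was opposite in the 2. At 16 h it was smaller in Setd1aDel than in wild-type cells for 14 of 42 members and larger for 0 (background 2.88% higher and 7.68% lower; medians -0.20 for the members and -0.034 for all tested genes), with Cdt1, a licensing factor (-0.44 ± 0.060), Cdc6 (-0.43 ± 0.074) and the clamp loader gene Rfc5 (-0.36 ± 0.062) in front. That count went down to 8 without Setd1aDel Dex with LPS replicate 1 or Setd1aDel LPS replicate 2, and up to 21 without Setd1aDel LPS replicate 3. It was 9 without Setd1aDel Dex with LPS replicate 2, without wild-type Dex with LPS replicate 3 or without wild-type LPS replicate 2, and also when only these 4 groups were fitted. At 6 h the effect was larger in Setd1aDel cells for 14 members and smaller for 0 (background 3.25% higher and 2.04% lower; medians 0.26 for the members and 0.022 for all tested genes), with Cdc6 (0.58 ± 0.093), Orc1 (0.50 ± 0.093) and the primase subunit Prim1 (0.46 ± 0.10) in front.

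A joint fit of both experiments compared the effect of 16 h of Dex with that of 6 h. In wild-type cells it was larger at 16 h for 23 members and smaller for 0 (background 9.14% higher and 4.36% lower; medians 0.31 for the members and 0.054 for all tested genes), with Prim1 (0.51 ± 0.091), the GINS subunit gene Gins1 (0.50 ± 0.099) and Rrm2 (0.50 ± 0.050) ahead. In Setd1aDel cells it was larger for 1, Pola2, and smaller for 17 (background 8.13% higher and 11% lower; medians -0.20 for the members and 0.00089 for all tested genes), with Cdc6 (-0.59 ± 0.083), Mcm3 (-0.49 ± 0.050) and Gins3 (-0.46 ± 0.13) ahead. Fitting only the groups compared gave 9 calls in place of 18 there, all of them smaller, without Gins3 or Pola2. Pola2 (0.19 ± 0.065) also lost its call in 5 of 12 fits without 1 library: 16 h Dex with LPS replicate 1 or 3, 16 h LPS replicate 2, and 6 h Dex with LPS or LPS replicate 2, all Setd1aDel (0.15 to 0.19). The length of the Dex treatment and the experiment it was run in cannot be told apart. The LPS response of wild-type cells, in which no Dex was given, also differed between the experiments, for 14 members in the direction of a smaller fall at 16 h and for 7 of a larger one (background 9.02% higher and 28.7% lower; medians 0.088 for the members and -0.13 for all tested genes). Scaling by medians of ratios, which moved all genes by 0.13, turned that split to 21 and 4. The largest of these differences were Gins3 (-0.57 ± 0.13), the primase subunit Prim2 (0.43 ± 0.080) and Gins2 (0.41 ± 0.12).

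Dex without LPS lowered most replication genes. After 6 h of Dex alone, wild-type cells had 36 of 42 members lower and 1 higher than vehicle, where 12% of the 8981 tested genes were higher and 24.8% lower, with a median of -0.44 for the members and -0.054 for all tested genes. The members' sum went from 3371 ± 4.34 to 2537 ± 62.8 TPM. Tk1 libraries held 150.0, 145 and 151 TPM with vehicle and 85.9, 86.1 and 76.1 with Dex, without overlap, a change of -0.84 ± 0.075 (SE, adjusted p = 4.12e-08). Gins2 (-0.76 ± 0.094), Rfc2 (-0.61 ± 0.066), Mcm2 (-0.60 ± 0.045) and Lig1 (-0.60 ± 0.062) followed, and Cdc6 (-0.49 ± 0.066), Mcm5 (-0.58 ± 0.048), Cdc45 (-0.54 ± 0.098), Pola1 (-0.39 ± 0.064), Fen1 (-0.54 ± 0.050), Rrm2 (-0.41 ± 0.040), Rpa2 (-0.31 ± 0.065) and Pcna (-0.25 ± 0.035) also fell. All 10 licensing genes were called lower, although the calls for Orc1 and Orc6 were lost under at least 1 alternative setting. Setd1aDel cells had 35 lower and 1 higher (background 12% higher and 18.3% lower; medians -0.42 for the members and -0.029 for all tested genes), with Gins2 at -0.82 ± 0.094 and Tk1 at -0.79 ± 0.075.

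Gins3 went the other way. The gene (chr8:95633453-95645060, plus strand) encodes a subunit of the GINS complex, of whose other subunit genes Gins1 and Gins2 fell with Dex alone and Gins4 did not pass the test (-0.11 ± 0.081 in wild-type cells, adjusted p = 0.325). Its wild-type libraries had 28.95, 26.6 and 25.9 TPM with vehicle and 47.3, 46.01 and 54.5 with Dex, without overlap, a change of 0.83 ± 0.098 (SE, adjusted p = 1.50e-06). Setd1aDel libraries had 24.5, 24.01 and 27.5 TPM with vehicle and 27.4, 32.6 and 33.3 with Dex, and the change of 0.28 ± 0.098 lost its call when only these 2 groups were fitted and without Dex replicate 2 or 3 or vehicle replicate 1 or 2 (0.23 to 0.26). Under LPS Gins3 stayed low in both genotypes, with 6.72, 6.38 and 6.30 TPM in wild-type LPS libraries and 6.96, 6.80 and 8.001 with Dex added. That wild-type difference was 0.14 ± 0.098 (adjusted p = 0.319) and did not pass the test. In Setd1aDel cells Gins3 was higher with Dex added to LPS. The authors' deposited DESeq2 values there are a log2 fold change of 0.61 and an adjusted p of 0.0056.

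The dependence of the Dex effect on LPS was tested as a difference of differences, a comparison added after seeing the data. In wild-type cells the effect was more positive under LPS for 36 of 42 members and more negative for 1, Gins3 at -0.69 ± 0.14 (background 21.2% higher and 9.24% lower; medians 0.64 for the members and 0.084 for all tested genes). Tk1 (1.43 ± 0.11), Gins2 (1.09 ± 0.13) and Rrm2 (0.97 ± 0.056) had the largest differences. In Setd1aDel cells the counts were 39 and 0 (background 20.6% higher and 9.52% lower; medians 0.87 for the members and 0.075 for all tested genes), led by Tk1 (1.57 ± 0.11), Chaf1b (1.55 ± 0.30) and Rrm2 (1.33 ± 0.056).

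**Figure D3:**
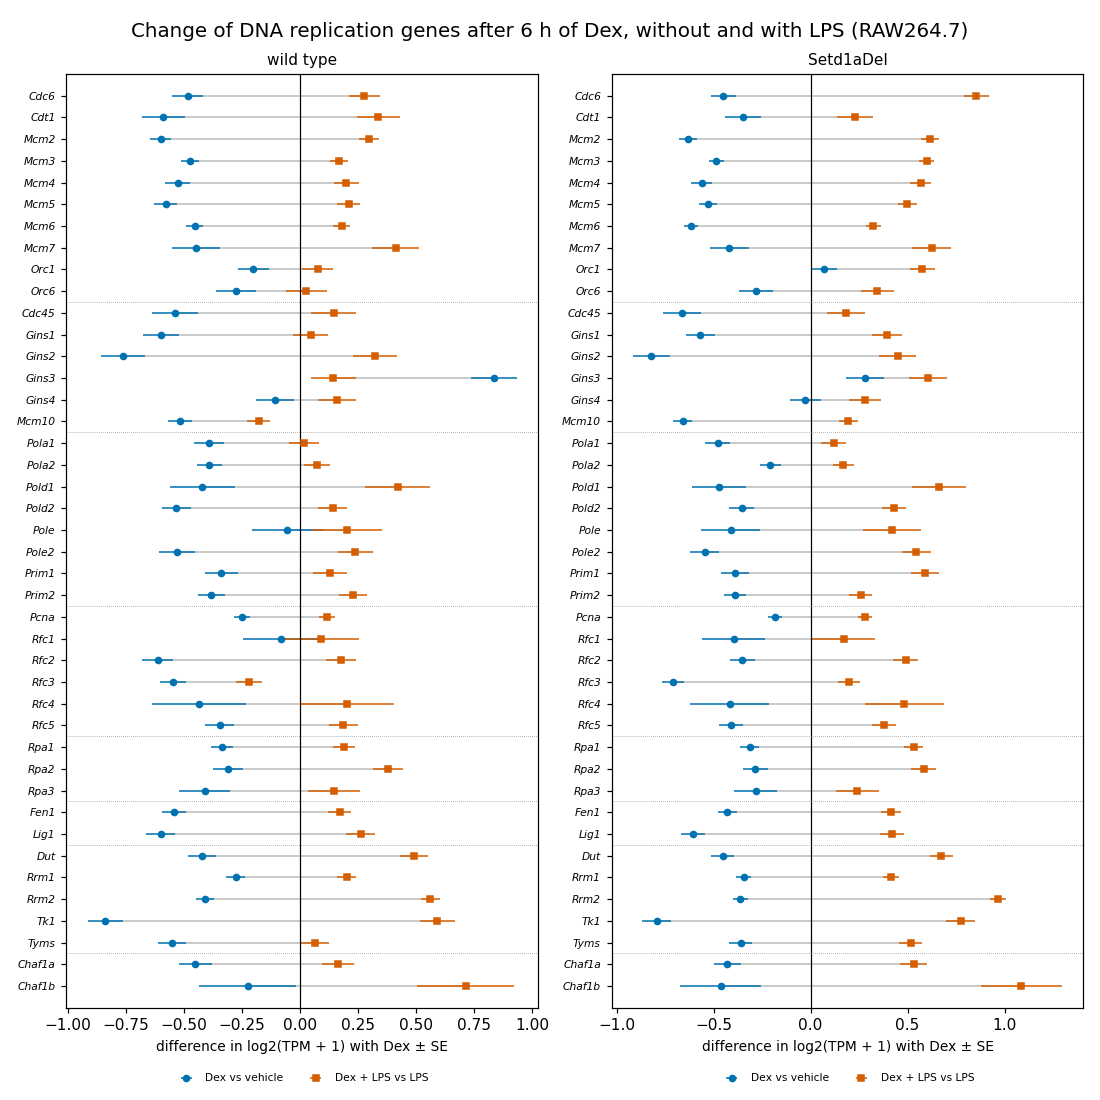
Change in log2(TPM + 1), with SE, of each DNA replication gene after 6 h of Dex in RAW264.7 cells, without LPS (circles) and with LPS (squares), in wild-type (left) and Setd1aDel cells (right). Circles lie left of 0 for all members but Gins3 in wild-type cells, while most squares lie right of it.

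In the marrow-derived cells the replication genes showed no common direction with Dex. In control cells 15 of 37 listed members were higher under Dex with LPS than under LPS and 10 were lower, where 44.8% of the 9159 tested genes were higher and 15.2% lower. Median differences were 0.17 for the members and 0.18 for all tested genes, and scaling by medians of ratios, which moved all genes by -0.19, gave 7 higher and 13 lower. The members' sum was 255 ± 3.49 TPM with LPS and 238 ± 1.99 with Dex and LPS. Mcm3 (0.85 ± 0.066), the largest subunit Rpa1 (0.58 ± 0.083), Rpa2 (0.58 ± 0.15), Gins4 (0.57 ± 0.082) and Orc6 (0.55 ± 0.14) were higher, and 6 of 8 polymerase and primase genes were. Cdt1 (-1.003 ± 0.094), Mcm6 (-0.75 ± 0.056), Tk1 (-0.68 ± 0.094), Dut (-0.66 ± 0.16), Rfc3 (-0.61 ± 0.079) and Pcna (-0.20 ± 0.027) were lower. The call for Rpa2 was lost with that scaling and Pcna was at -0.42, while with a pseudocount of 0.1 Tk1, at or under 0.963 TPM in these libraries, was at -2.13. The authors' deposited table has 5 higher and 13 lower for this contrast.

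In the libraries labelled Setd1bKO Dex with LPS gave 12 higher and 5 lower (background 39.2% higher and 13.5% lower; medians 0.14 for the members and 0.15 for all tested genes), which scaling turned to 5 and 6. Rpa1 (0.63 ± 0.083) and Orc6 (0.52 ± 0.14) were higher and Dut (-0.61 ± 0.16) and Rfc3 (-0.44 ± 0.079) lower. The authors' deposited table has 3 higher and 7 lower. The Dex effect differed between the genotypes for 5 members toward a higher value in Setd1bKO and for 1, Mcm3, toward a lower one (background 2.69% higher and 3.53% lower; medians 0.031 for the members and -0.027 for all tested genes). Cdt1 (0.68 ± 0.13), Tk1 (0.61 ± 0.13) and Mcm6 (0.54 ± 0.079) differed most, and 3 calls, all toward a higher value, were left when only these 4 groups were fitted. In that fit 27 of 37 members passed the filter and were tested. The call for Mcm3 (-0.39 ± 0.094) was lost there, and also without Setd1bKO LPS replicate 1 (-0.34) or control LPS replicate 2 (-0.37). With a pseudocount of 0.1 the difference for Tk1 was 1.86.

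Setd1aDel cells of the 16 h experiment had lower replication gene levels than wild-type cells in each treatment. With vehicle 31 of 42 members were lower and 0 higher, where 15.3% of the 8964 tested genes were higher and 32.9% lower (medians -0.23 for the members and -0.076 for all tested genes). With LPS 36 were lower and 1 higher (background 17.5% higher and 42.4% lower; medians -0.39 for the members and -0.11 for all tested genes). Under Dex with LPS 41 were lower and 1 higher (background 17% higher and 47.6% lower; medians -0.57 for the members and -0.14 for all tested genes), and the sums were 1707 ± 38.2 TPM in wild-type and 1126 ± 21.9 in Setd1aDel libraries.

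Mcm6, a subunit of the MCM ring (chr1:128331590-128359664, minus strand), separated the genotypes most. Under LPS its wild-type libraries had 44.4, 45.3 and 44.3 TPM and its Setd1aDel libraries 20.4, 19.7 and 19.2, without overlap, a difference of -1.14 ± 0.031 (SE, adjusted p = 1.31e-13). With Dex added the libraries had 62.6, 63.6 and 62.4 and 25.5, 25.7 and 26.4 TPM, a difference of -1.25 ± 0.031. Chaf1b (-1.12 ± 0.18), Dut (-1.01 ± 0.044), Tk1 (-1.001 ± 0.068) and Mcm10 (-0.93 ± 0.048) followed under Dex with LPS. Mcm5 (-0.67 ± 0.037), Cdc6 (-0.58 ± 0.052), Pola1 (-0.56 ± 0.053), Rrm2 (-0.51 ± 0.033), Fen1 (-0.45 ± 0.034), Rpa2 (-0.43 ± 0.060), Cdc45 (-0.39 ± 0.078) and Pcna (-0.35 ± 0.051) were lower as well. Scaling by medians of ratios, which moved all genes by 0.14, kept these calls and put Fen1 at -0.30, Rpa2 at -0.28, Cdc45 at -0.24 and Pcna at -0.19. With vehicle the largest differences were those of Pold2 (-0.53 ± 0.038), a polymerase delta subunit, Dut (-0.46 ± 0.044) and Tk1 (-0.42 ± 0.068), while Cdc6 was at -0.086 ± 0.052 (adjusted p = 0.195).

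Pola2 (chr19:5940542-5964202, minus strand), the regulatory subunit of the polymerase alpha and primase complex, was the single member higher in Setd1aDel cells under LPS and under Dex with LPS. Its LPS libraries had 15.4, 15.3 and 16.3 TPM in wild-type and 18.9, 18.4 and 19.04 in Setd1aDel cells, a difference of 0.25 ± 0.037 (SE, adjusted p = 3.64e-05), and under Dex with LPS the difference was 0.24 ± 0.037 (0.39 with scaling by medians of ratios). With vehicle the groups stood the other way, at 44.2, 46.8 and 44.2 and 35.9, 35.9 and 35.2 TPM. The LPS response of the 16 h experiment differed between genotypes for Pola2 in the positive direction (0.57 ± 0.053), as for Cdc45 (0.30 ± 0.11, a call lost with a pseudocount of 0.1, with the replicate block, when only these 4 groups were fitted and in 9 of 12 fits without 1 library), and for 17 members in the negative one (background 13.1% higher and 20.3% lower; medians -0.12 for the members and -0.034 for all tested genes). Mcm6 (-0.90 ± 0.044) and Lig1 (-0.66 ± 0.055) led the latter.

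In the 6 h experiment the genotypes were close with vehicle, where 4 of 42 members (Pold2, Tk1, Dut and Rfc2) were lower in Setd1aDel cells and 0 higher, while 6.58% of the 8981 tested genes were higher and 15.6% lower (medians -0.020 for the members and -0.063 for all tested genes). Scaling by medians of ratios gave 3 lower and 1 higher, with Rfc2 no longer lower. With LPS 9 members were higher and 1, Rfc3, lower (background 9.19% higher and 12.3% lower; medians 0.11 for the members and -0.020 for all tested genes), and 5 calls, all higher, were left when only these 2 groups were fitted. Rfc3 (-0.21 ± 0.057) also lost its call without Setd1aDel LPS replicate 2 (-0.19). Pola2 (0.34 ± 0.054) and Prim2 (0.29 ± 0.058) were among the higher ones. With Dex alone 1, Orc1 (0.33 ± 0.066), was higher and 5 were lower (background 6.2% higher and 7.37% lower; medians -0.016 for the members and -0.039 for all tested genes), led by Gins3 (-0.65 ± 0.098), and 3 calls in all were left when only these 2 groups were fitted.

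With Dex and LPS for 6 h, however, 32 of 42 members were higher in Setd1aDel cells and 0 lower, the reverse of the 16 h experiment (background 13.1% higher and 13.1% lower; medians 0.36 for the members and 0.0064 for all tested genes). Cdc6, the MCM loader (chr11:98907801-98923940, plus strand), had 10.2, 8.73 and 9.26 TPM in wild-type and 17.5, 17.2 and 17.3 in Setd1aDel libraries at 6 h, a difference of 0.82 ± 0.066 (SE, adjusted p = 2.97e-08). At 16 h the same groups had 13.6, 12.7 and 12.8 and 7.98, 8.78 and 8.40 TPM. In neither experiment did the genotypes overlap, and their order was opposite. Orc1 (0.72 ± 0.066), Mcm3 (0.54 ± 0.039), Rrm2 (0.52 ± 0.040), Mcm5 (0.38 ± 0.048), Rpa2 (0.38 ± 0.065), Tk1 (0.37 ± 0.075), Fen1 (0.35 ± 0.050) and Pcna (0.30 ± 0.035) were higher at 6 h too, as was Chaf1b (0.73 ± 0.21), whose call was lost when only these 2 groups were fitted and without Setd1aDel replicate 3 (0.55) or wild-type replicate 1 (0.49). The LPS response itself differed between genotypes at 6 h for 6 members in the positive direction and for 1 in the negative one (background 2.97% higher and 2.63% lower; medians 0.16 for the members and 0.043 for all tested genes), with Tk1 (0.50 ± 0.11), Pola2 (0.46 ± 0.077) and Rfc3 (-0.30 ± 0.080) the largest. That count of 7 was 3 without Setd1aDel vehicle replicate 2, without wild-type vehicle replicate 2 or without wild-type vehicle replicate 3, and the call for Rfc3 was lost in 9 of 12 fits without 1 library.

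**Figure D4:**
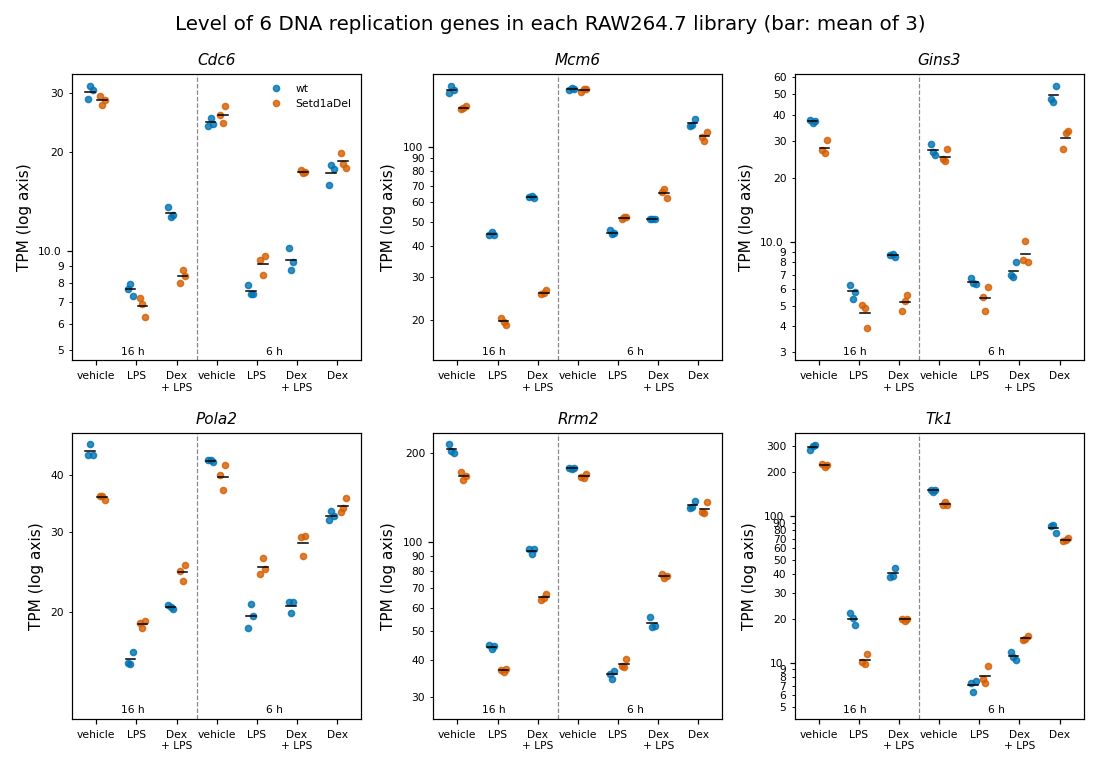
TPM of Cdc6, Mcm6, Gins3, Pola2, Rrm2 and Tk1 in each RAW264.7 library (log axis), by treatment and genotype, with bars at the mean of 3 libraries and a dashed line between the 16 h and 6 h experiments. Under Dex with LPS the Setd1aDel points lie below wild type at 16 h and above it at 6 h in all 6 genes but Pola2, where they lie above in both.

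The joint fit was also used, in comparisons added after seeing the data, to test whether the genotype difference differed between the experiments, 16 h minus 6 h. Under Dex with LPS it was lower at 16 h for 42 of 42 members and higher for 0, where 11.9% of the 8981 tested genes were higher and 34.6% lower (medians -0.98 for the members and -0.13 for all tested genes). Chaf1b (-1.85 ± 0.29), Mcm6 (-1.59 ± 0.045) and Cdc6 (-1.40 ± 0.083) differed most, and scaling, which moved all genes by 0.15, ended the calls for Pola2, Pold1, Rfc1 and Rpa3. The difference was not limited to Dex. Under LPS alone 36 members were lower and 0 higher (background 13.6% higher and 27.8% lower; medians -0.43 for the members and -0.095 for all tested genes), with Mcm6 (-1.33 ± 0.045), Tk1 (-1.05 ± 0.10) and Lig1 (-0.98 ± 0.074) in front. With vehicle 17 were lower and 0 higher (background 11.6% higher and 11.7% lower; medians -0.20 for the members and -0.0054 for all tested genes). There Chaf1b (-0.80 ± 0.29), the polymerase epsilon gene Pole (-0.54 ± 0.18) and Cdc45 (-0.49 ± 0.13) led, and Chaf1b lost its call with a pseudocount of 0.1, with the replicate block and in 9 of 12 fits without 1 library, and Pole in 3 of them. That last count was 10 without wild-type vehicle replicate 2 of the 16 h experiment, and 11 without Setd1aDel vehicle replicate 3 or wild-type vehicle replicate 1 of the 6 h experiment.

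Other features of the libraries also differed between genotypes and experiments. Summed macrophage markers in the 16 h experiment were 2982 to 3450.4 TPM in wild-type and 23457 to 24576 in Setd1aDel vehicle libraries, and 4497 to 4730.2 against 11875 to 12156 under Dex with LPS. In the 6 h experiment they were 9721 to 10039 and 12086 to 12928 with vehicle and 6466 to 6728 and 7213 to 7568 under Dex with LPS. Gene by gene, 8 of the 9 listed markers were higher in Setd1aDel cells with vehicle at 16 h and 0 lower (median 0.38). Under Dex with LPS at 16 h 4 were higher and 4 lower (median 0.10). At 6 h 6 were higher and 0 lower with vehicle (median 0.19), and 5 and 1 under Dex with LPS (median 0.16). The wild-type vehicle cells of both experiments thus differed in these markers before any treatment. Of 8 neutrophil markers the single one listed, S100a8, was at 19.99 to 22.1 TPM in wild-type and 317 to 384 in Setd1aDel libraries under Dex with LPS at 16 h. At 6 h its order was the other way, with 187 to 206 TPM in wild-type and 130.2 to 139 in Setd1aDel libraries. The part of these features in the replication gene differences was not tested.

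**Figure D5:**
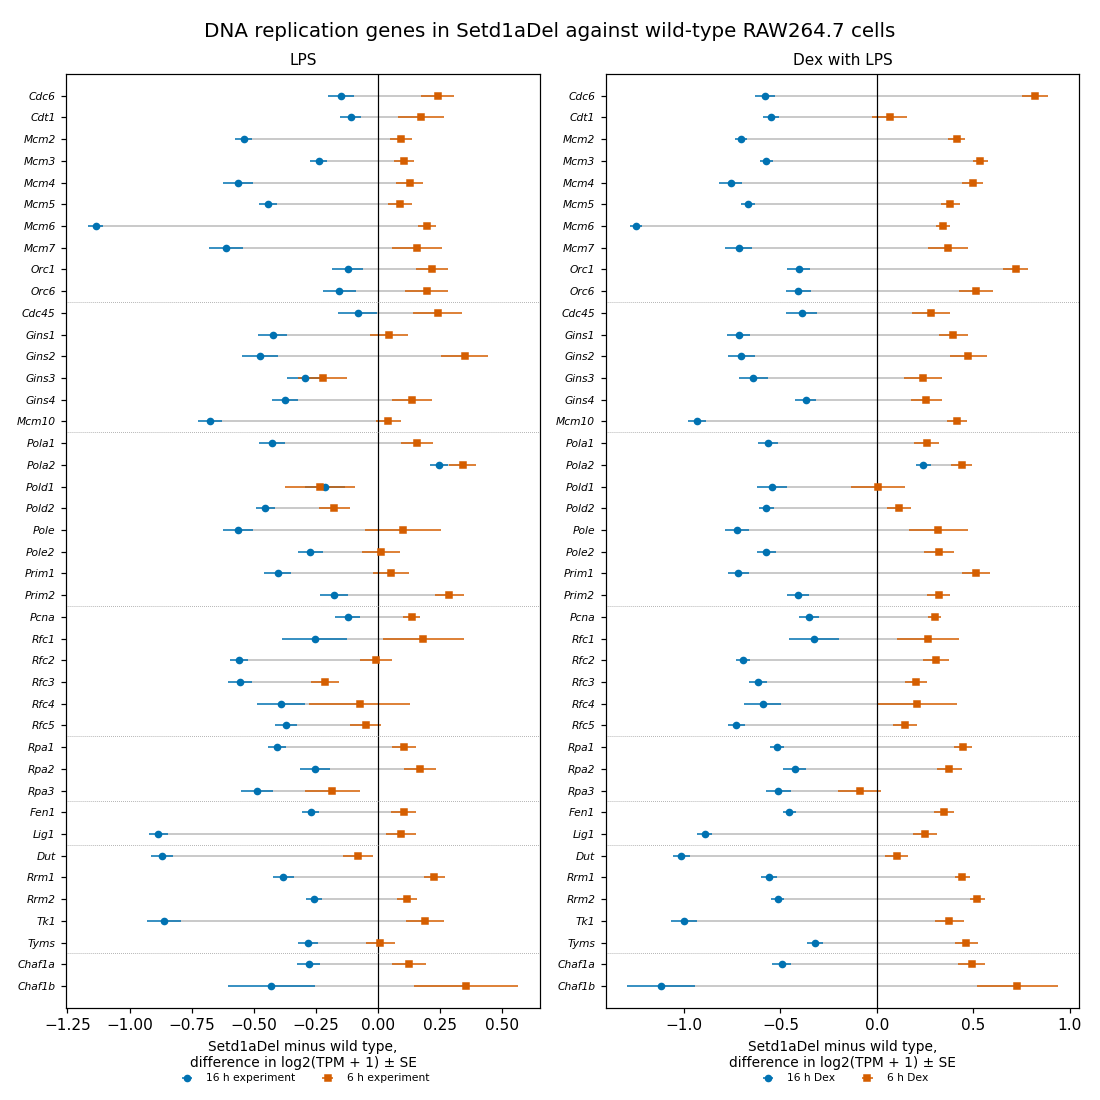
Difference in log2(TPM + 1), Setd1aDel minus wild type, with SE, for each DNA replication gene under LPS (left) and under Dex with LPS (right), in RAW264.7 cells of the 16 h and the 6 h experiment. Under Dex with LPS 41 of 42 genes are below 0 at 16 h, and 32 of 42 were called above 0 at 6 h.

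In marrow-derived cells the libraries labelled Setd1bKO had lower replication gene levels with vehicle, where 26 of 37 members were lower and 1 higher, while 9.89% of the 9159 tested genes were higher and 15.4% lower (medians -0.55 for the members and -0.019 for all tested genes). The sums were 879.5 ± 18.3 TPM in control and 671 ± 12.5 in Setd1bKO libraries. All 5 nucleotide supply genes and 7 of 8 licensing genes were lower, with Mcm5 (-0.95 ± 0.11), Rrm1 (-0.86 ± 0.089), Mcm10 (-0.82 ± 0.062), Rpa2 (-0.60 ± 0.15), Pola1 (-0.56 ± 0.058), Fen1 (-0.40 ± 0.080) and Pcna (-0.26 ± 0.027) among them. With a pseudocount of 0.1 Mcm10 was at -1.25. Rfc2 was the higher one. Its control libraries had 41.1, 42.6 and 41.1 TPM and its Setd1bKO libraries 51.8, 49.1 and 48.01, a difference of 0.25 ± 0.080 whose call was lost without any 1 of the 6 libraries (0.22 to 0.27).

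After LPS the 2 marrow-derived genotypes were closer on the log2(TPM + 1) scale. With LPS 11 of 37 members in control and 10 in Setd1bKO cells were under 1 TPM in all libraries. The pseudocount limits how far such members can differ, and its part in the closeness was not tested. With LPS 7 members were higher and 6 lower in Setd1bKO (background 29% higher and 12.4% lower; medians 0.061 for the members and 0.096 for all tested genes). With a pseudocount of 0.1 these counts were again 7 and 6. Tyms (0.59 ± 0.089), Prim2 (0.53 ± 0.085) and Pola2 (0.51 ± 0.060) were the highest, and Tk1 (-0.53 ± 0.094), Cdt1 (-0.47 ± 0.094) and Mcm6 (-0.45 ± 0.056) the lowest, with Tk1 at -1.45 when the pseudocount was 0.1. Under Dex with LPS 5 were higher (Tyms, Rfc3, Pola2, Rfc2 and Pcna) and 1, Rrm2, lower (background 23.5% higher and 11.5% lower; medians 0.088 for the members and 0.073 for all tested genes), which scaling turned to 5 and 3. A pseudocount of 0.1 gave 6 higher and 2 lower. Rrm2 (-0.33 ± 0.10) lost its call without Setd1bKO Dex with LPS replicate 1 (-0.31) or control Dex with LPS replicate 3 (-0.19), and did not pass the filter when only these 2 groups were fitted. Tyms had 5.32, 5.47 and 4.54 TPM in control and 9.03, 8.58 and 7.84 in Setd1bKO libraries there, a difference of 0.64 ± 0.089 (SE, adjusted p = 4.67e-05) with no overlap. The 3 genotype comparisons and the tests of the LPS and Dex effects share libraries and are not independent.

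IFNB1 given with LPS lowered replication genes further than LPS in RAW264.7 cells. In wild-type cells 29 of 42 members were lower and 0 higher, where 9.5% of the 10923 tested genes were higher and 23.5% lower (medians -0.28 for the members and -0.089 for all tested genes). In Setd1aDel cells 31 were lower and 1, Mcm10 at 0.28 ± 0.079, higher (background 10.5% higher and 43.6% lower; medians -0.38 for the members and -0.18 for all tested genes). Cdc6 fell most in wild-type cells, from 15.8, 16.4 and 18.6 TPM to 9.20, 8.90 and 8.80, without overlap, a change of -0.84 ± 0.074 (SE, adjusted p = 8.58e-06). Tk1 (-0.79 ± 0.094), Chaf1b (-0.72 ± 0.089), Rrm2 (-0.61 ± 0.040) and Rpa2 (-0.57 ± 0.046) came next, and in Setd1aDel cells Cdc6 (-1.07 ± 0.074), Tk1 (-1.05 ± 0.094), Chaf1b (-0.96 ± 0.089) and Rrm2 (-0.95 ± 0.040) did. With scaling by medians of ratios Mcm10 was at 0.46. Mcm5 did not pass the test in either genotype (-0.36 ± 0.16 with adjusted p = 0.118, and -0.24 ± 0.16 with adjusted p = 0.235), although without wild-type IFNB1 with LPS replicate 1 its wild-type change was -0.59 and called. The authors' deposited table has 1 higher and 23 lower in wild-type and 2 higher and 25 lower in Setd1aDel cells.

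The IFNB1 effect differed between genotypes for 5 members, each with a lower value in Setd1aDel cells, and for 0 in the other direction (background 3.31% higher and 8.01% lower; medians -0.13 for the members and -0.080 for all tested genes). They were Gins3 (-0.36 ± 0.089), Rrm2 (-0.34 ± 0.057), Mcm4 (-0.28 ± 0.063), Prim1 (-0.24 ± 0.068) and Rrm1 (-0.21 ± 0.060). Scaling gave 2 lower and 2 higher, and leaving out wild-type IFNB1 with LPS replicate 2 or wild-type LPS replicate 1 left a count of 1. Without 1 library or another, each call but that of Rrm2 was lost. Between the genotypes, 9 members were higher and 13 lower in Setd1aDel cells with LPS (background 17.7% higher and 24.9% lower; medians -0.019 for the members and -0.048 for all tested genes), and 4 higher and 19 lower with IFNB1 and LPS (background 15.8% higher and 38.4% lower; medians -0.16 for the members and -0.14 for all tested genes). Scaling by medians of ratios turned these splits to 11 and 9 and to 9 and 6. Tk1 was lower in Setd1aDel cells in both (-0.58 ± 0.094 and -0.84 ± 0.094), and Pola2 was higher in both (0.39 ± 0.041 and 0.47 ± 0.041).

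Genes of the surrounding pathways were counted in the same fits, in 3 lists of 47 other replication genes, 27 genes of E2F and cyclin control and 25 mitotic genes. With LPS in wild-type cells of the 16 h experiment 39 of 46 tested other replication genes were lower and 2 higher, 20 of 25 E2F and cyclin genes were lower and 4 higher, and 25 of 25 mitotic genes were lower, beside 66.1% lower among all tested genes. E2f1, an activating E2F factor, changed by -2.05 ± 0.076, the cyclin E gene Ccne1, which drives entry into S phase, by -2.09 ± 0.088, and the proliferation marker Mki67 by -2.17 ± 0.086. The cyclin-dependent kinase inhibitor Cdkn1a rose by 1.12 ± 0.036. With Dex and LPS for 16 h 33 of 46, 17 of 25 and 25 of 25 genes of the 3 lists were higher than under LPS in wild-type cells, and 2, 5 and 0 were lower, beside 35.2% higher and 12.3% lower among all tested genes.

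In control marrow-derived cells LPS lowered 24 of 35 other replication genes and raised 3, beside 64.7% lower among all tested genes. Among the lower were Gmnn, the inhibitor of Cdt1 (-4.23 ± 0.21), and Uhrf1, which maintains DNA methylation (-3.20 ± 0.16). LPS lowered 13 of 21 E2F and cyclin genes and raised 6, and it lowered 17 of 18 mitotic genes and raised 1. Mki67 rose, from 7.32, 7.95 and 6.58 TPM to 15.5, 14.8 and 15.1 in control cells (0.96 ± 0.10) and from 3.21, 2.30 and 2.16 to 32.9, 29.8 and 35.7 in Setd1bKO cells (3.26 ± 0.10), without overlap in either. Ccne1 rose as well (1.41 ± 0.12 in control cells), opposite to its fall in RAW264.7 cells, while E2f1 fell (-1.72 ± 0.066) and Cdkn1a rose (3.59 ± 0.057). The tables of the 2 cell types were normalized separately, so the difference between them was not tested.

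Between the RAW264.7 genotypes under Dex with LPS most called genes of each list were lower in Setd1aDel cells at 16 h and higher at 6 h. At 16 h 41 of 46 other replication genes, 16 of 25 E2F and cyclin genes and 23 of 25 mitotic genes were lower in Setd1aDel cells, and 1, 3 and 0 were higher (of all tested genes 47.6% were lower). At 6 h 23 of 46, 10 of 25 and 22 of 25 were higher, and 6, 5 and 0 were lower (of all tested genes 13.1% were higher). Ccne1 differed by -0.84 ± 0.088 at 16 h and 0.86 ± 0.10 at 6 h, and E2f1 by -0.60 ± 0.076 and 0.53 ± 0.067. With IFNB1 and LPS, Ccne1 changed by -0.64 ± 0.054 and E2f1 by -0.54 ± 0.067 in wild-type cells against LPS alone.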

How the data were processed

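Per the labels, the authors deposited TPM per gene, and per the submitters' processing notes they used Salmon 0.10.2, R 3.6.0 and DESeq2 with the assembly GRCm38.p6 (mm10). The header of the IFNB1 table names no unit and its values were read as TPM. The authors' deposited table also gives log2 fold changes and adjusted p-values for Dex with LPS or IFNB1 with LPS over LPS. Read numbers are not given in the sources used here, so no counting interval can be stated and precision comes from 3 libraries a group. The tables were normalized separately and tests were made within a table.

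Members were matched by symbol, and members, pathway lists and tests were chosen with earlier results of these data known. limma 3.58.1 (R 4.3.3, with data.table, version 1.17.8, for input) was fitted to each experiment on log2(TPM + 1), computed from the deposited values, with 1 mean per group and a trended eBayes. Tested genes reached 1 TPM in 3 or more libraries, and Benjamini-Hochberg adjusted p-values covered all of them, with 0.05 as the threshold. Of 43 comparisons 5 were added after seeing the data. The fit was tested on simulated data. Statistics are named for 10 representative members, the 5 largest and 5 smallest called changes, members called against the majority, and up to 4 genes of other lists. Alternatives were a pseudocount of 0.1, no filter, scaling by medians of ratios, the replicate number as a block, the compared groups alone, and each library left out. No 2 libraries were identical, and the lowest correlation between replicates was 0.9829. Replicate numbers did not pair the samples. Coordinates come from GENCODE on GRCm38. Tables and figures were made with Python 3.11.15, pandas 2.3.3, numpy 2.4.6 and matplotlib 3.10.9.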

Additional observations from a re-analysis of the deposited data

Results flagged for a closer look

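Each result here is a test of whether an effect differed between genotypes, experiments or the presence of LPS, as a difference of log2 changes with the count of members called. Counts are out of 37 members in marrow-derived cells and 42 in RAW264.7 cells. Background shares are those of all tested genes called higher and lower in the same test.

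Between Setd1bKO and control marrow-derived cells the LPS response differed for 23 members, most for Tyms (1.37), Rrm2 (1.31) and Tk1 (1.16), and the Dex effect for 6, most for Cdt1 (0.68), Tk1 (0.61) and Mcm6 (0.54). Background shares were 16.4% higher and 5.43% lower for the LPS response, and 2.69% and 3.53% for the Dex effect. Between Setd1aDel and wild-type RAW264.7 cells the LPS response of the 16 h experiment differed for 19 members, most for Mcm6 (-0.90), Lig1 (-0.66) and Pola2 (0.57), and the Dex effect for 14, most for Cdt1 (-0.44), Cdc6 (-0.43) and Rfc5 (-0.36). Background shares were 13.1% higher and 20.3% lower for the LPS response, and 2.88% and 7.68% for the Dex effect. In the 6 h experiment the LPS response differed for 7, most for Tk1 (0.50), Pola2 (0.46) and Rfc3 (-0.30), and the Dex effect for 14, most for Cdc6 (0.58), Orc1 (0.50) and Prim1 (0.46). Background shares were 2.97% higher and 2.63% lower for the LPS response, and 3.25% and 2.04% for the Dex effect. The IFNB1 effect differed for 5, most for Gins3 (-0.36), Rrm2 (-0.34) and Mcm4 (-0.28), with background shares of 3.31% higher and 8.01% lower.

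Between the 16 h and 6 h experiments the Dex effect differed for 23 members in wild-type cells, most for Prim1 (0.51), Gins1 (0.50) and Rrm2 (0.50), and for 18 in Setd1aDel cells, most for Cdc6 (-0.59), Mcm3 (-0.49) and Gins3 (-0.46). Background shares were 9.14% higher and 4.36% lower in wild-type cells, and 8.13% and 11% in Setd1aDel cells. The wild-type LPS response differed for 21, most for Gins3 (-0.57), Prim2 (0.43) and Gins2 (0.41), with background shares of 9.02% higher and 28.7% lower. The genotype difference itself differed for 17 with vehicle, most for Chaf1b (-0.80), Pole (-0.54) and Cdc45 (-0.49), for 36 with LPS, most for Mcm6 (-1.33), Tk1 (-1.05) and Lig1 (-0.98), and for 42 under Dex with LPS, most for Chaf1b (-1.85), Mcm6 (-1.59) and Cdc6 (-1.40). Background shares were 11.6% higher and 11.7% lower with vehicle, 13.6% and 27.8% with LPS, and 11.9% and 34.6% under Dex with LPS. Between cells with and without LPS the effect of 6 h of Dex differed for 37 members in wild-type cells, most for Tk1 (1.43), Gins2 (1.09) and Rrm2 (0.97), and for 39 in Setd1aDel cells, most for Tk1 (1.57), Chaf1b (1.55) and Rrm2 (1.33). Background shares were 21.2% higher and 9.24% lower in wild-type cells, and 20.6% and 9.52% in Setd1aDel cells.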

How the results depend on the processing

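Of the 43 counts of members called, all stayed within 1.5 times of the reported value with a pseudocount of 0.1, and 42 did without the filter, 41 with scaling by medians of ratios and 36 with the compared groups alone. Without the filter, the genotype difference in the IFNB1 effect gave 3 in place of 5. Scaling gave 11 in place of 17 for Dex in Setd1bKO marrow-derived cells and 15 in place of 23 for the genotypes under IFNB1 with LPS. Fitting the compared groups alone gave 10 for the former, 3 in place of 6 for the marrow-derived genotype difference in the Dex effect, and 9 in place of 14 for that of the 16 h experiment. In these 2 marrow-derived fits 27 of 37 members passed the filter and were tested. The compared groups alone gave 13 in place of 25 for Dex in wild-type cells at 6 h, 5 in place of 10 and 3 in place of 6 for the 6 h genotypes with LPS and with Dex, and 9 in place of 18 for the Dex effect in Setd1aDel cells between experiments. Scaling changed the sign in 94 of 1761 pairs of member and comparison, 5 of them among the 1129 called. Those with statistics named were, with LPS, Rfc3 (0.29) and Tyms (0.10) in control marrow-derived cells and Orc1 (0.0015) in Setd1aDel cells at 16 h, Pcna between marrow-derived genotypes with LPS (-0.0063), Rpa3 with IFNB1 in Setd1aDel cells (0.0026), and Rrm2 between genotypes under IFNB1 with LPS, called after scaling alone (0.12). The cause of these changes was not tested. Leaving out 1 library gave 8 to 21 for the 16 h genotype difference in the Dex effect, 3 to 6 for the 6 h one in the LPS response, 1 to 4 for that in the IFNB1 effect, and 10 to 16 for the vehicle genotype difference between experiments. Other counts stayed within 1.5 times.

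Pairing of libraries by replicate number was checked. Deviations from group means of libraries with the same number had median correlations from -0.0161 to 0.00988 over the 4 experiments, so the numbers were not taken as pairs. With the replicate block all 43 counts stayed within 1.5 times, and of the 1129 calls of single members 1097 were kept, 32 were lost and 16 others gained.

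Depth is unknown, and 9 to 11 of 37 members were under 1 TPM in all libraries of each marrow-derived group given LPS, where changes are bounded by the pseudocount.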

Other observations

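Mcm5 and Rfc2 stood low in the IFNB1 table beside the 6 h experiment, in which wild-type cells received the same LPS treatment. Mcm5 had 11.5, 9.30 and 11.2 TPM in the wild-type LPS libraries of the IFNB1 experiment and 39.6, 40.9 and 40.5 in those of the 6 h experiment. Rfc2 had 3, 2.90 and 3 and 13.1, 12.2 and 13.5 TPM. The members' sum was higher in the IFNB1 experiment, at 2298 ± 11.2 TPM against 1049.8 ± 19.8. The tables were normalized separately, and why these 2 genes stood low was not tested.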
